A study of Mus musculus with 10 samples.

Results

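The clustered protocadherins are cadherin-like proteins of the neuronal surface whose genes stand in 3 neighbouring clusters, alpha, beta and gamma. They were read from the RNA of whole mouse embryos at embryonic day 11.5 (E11.5). Members were chosen by gene symbol (*Pcdha*, *Pcdhb* and *Pcdhga*, *Pcdhgb* or *Pcdhgc* followed by a number, and *Pcdhac*), with a mean normalized count above 0 over the 10 embryos. Of 60 such symbols, 57 passed, which is 57 of 20665 genes with a mean above 0. They comprise 13 genes of the alpha cluster, 22 of the beta cluster and 22 of the gamma cluster, and 5 of them are the C-type isoforms *Pcdhac1*, *Pcdhac2*, *Pcdhgc3*, *Pcdhgc4* and *Pcdhgc5*. *Pcdha4*, *Pcdha6* and *Pcdha7* are listed at 0 and were left out. The lowest members that passed were *Pcdha6-g*, with a mean of 0.0909, and *Pcdhb1*, with a mean of 0.263.

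The study asked how the loss of *Wwc2*, a regulator of the Hippo pathway, changes the embryonic transcriptome. Its groups were 3 wildtype embryos, 3 heterozygous embryos (Zp3-Cre-Wwc2 KO/+) and 4 homozygous KO embryos (Zp3-Cre-Wwc2 KO/KO), all on the C57BL/6 strain. The *Zp3* promoter drives Cre in the growing oocyte, so the floxed allele is removed in the germ line and the whole embryo carries the deletion. KO embryos of this age are smaller and less developed than their controls, and a difference in stage between the genotypes cannot be told apart from one of genotype. In bulk RNA of a whole embryo, fewer cells of a type and less RNA per cell cannot be told apart either. *Wwc2* itself was present at a mean normalized count, derived as given below, of 1971 in wildtype, 1860 in heterozygous embryos and 2420.5 in the KO. Its log2 fold change in KO versus wildtype embryos was 0.30 (SE 0.17, adjusted p = 0.176), and since the count covers the whole gene, any RNA left by the deletion included, it does not check the labels.

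Each clustered protocadherin has cadherin repeats outside the cell and binds the same isoform on another cell. A neuron expresses a random few of the alternate isoforms, each from its own promoter, and the mixture lets a neuron tell its own branches from those of others. In the alpha and gamma clusters every isoform has a variable exon of its own that is spliced to constant exons common to the cluster, whereas the beta genes consist of 1 exon and share none. C-type isoforms lie at the ends of the alpha and gamma clusters and are expressed less randomly than the alternate isoforms. CTCF and cohesin loop the promoters to distant enhancers, and DNA methylation silences those that are not chosen.

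On chromosome 18 of GRCm38 (mm10), the alpha cluster spans 36930285 to 37188897, the beta cluster 37264998 to 37521419 and the gamma cluster 37661775 to 37841873. By GENCODE, the alpha transcripts share 2860 bases of constant exon and most gamma transcripts share 2119 bases, and how the authors' counting treated reads in these exons is not given in the sources used here. Own exons ran from 2346 to 3028 bases in the alpha and from 2499 to 2961 bases in the gamma cluster, and from 2588 to 8695 bases among the beta genes. Members are similar in sequence, so some reads may belong to more than one. Of the 80-base windows in the own exon of *Pcdha11*, 15.1% occurred unchanged in another member, and the share was 13.0% for *Pcdhgb2* and 12.7% for *Pcdhgb1*, but at most 3.40% for any beta gene and 0% for each C-type isoform. *Pcdhb21* and *Pcdhb22* overlap by 455 bases. *Pcdha6-g* and *Pcdha7-g* are read-through genes that begin at the alpha exons of the same number and end with the gamma cluster. How reads in these overlaps were counted is not given, so the 0 of *Pcdha6* and *Pcdha7* need not mean absent RNA.

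The authors' deposited tables give, for each gene, a mean normalized count over all embryos and a log2 fold change with its standard error (SE) and p-value from DESeq2. Neither the depth of single libraries nor the values of single embryos are given, since counts per embryo were not used. The mean of each genotype was derived from the overall mean and the 2 fold changes, and is a normalized count unless a sentence says per kilobase. A gene is called at an adjusted p under 0.05. The authors' table gives an adjusted p in KO versus wildtype embryos for 52 of the 57 members, and *Pcdha1*, *Pcdha8*, *Pcdha6-g*, *Pcdha7-g* and *Pcdhb1* have none, all with means under 2.44.

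The 3 clusters were expressed at different levels in wildtype embryos. Per kilobase of own exon, the median level of the members with an adjusted p was 5.12 in the alpha, 8.54 in the beta and 54.5 in the gamma cluster. These per-kilobase levels assume that reads fell on the own exon. A single gene, *Pcdhgc3*, stood far above the rest at 1552 per kilobase. The next highest were *Pcdhgb6* at 175 per kilobase and *Pcdhgb7* at 125, followed by *Pcdhga11* at 114. Within the alpha cluster the C-type gene *Pcdhac2* was highest, at 37.1 per kilobase, above alternate isoforms between 2.83 and 8.57. *Pcdhac1*, the other C-type gene of the cluster, lay among the alternate isoforms at 5.12. *Pcdhb7* led the beta cluster at 22.4 per kilobase, next to *Pcdhb17* at 20.1 and *Pcdhb20* at 18.4. C-type isoforms took both ends of the gamma range, with *Pcdhgc5* lowest at 12.9 and *Pcdhgc4* in the middle at 54.4 per kilobase.

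**Figure D1:**
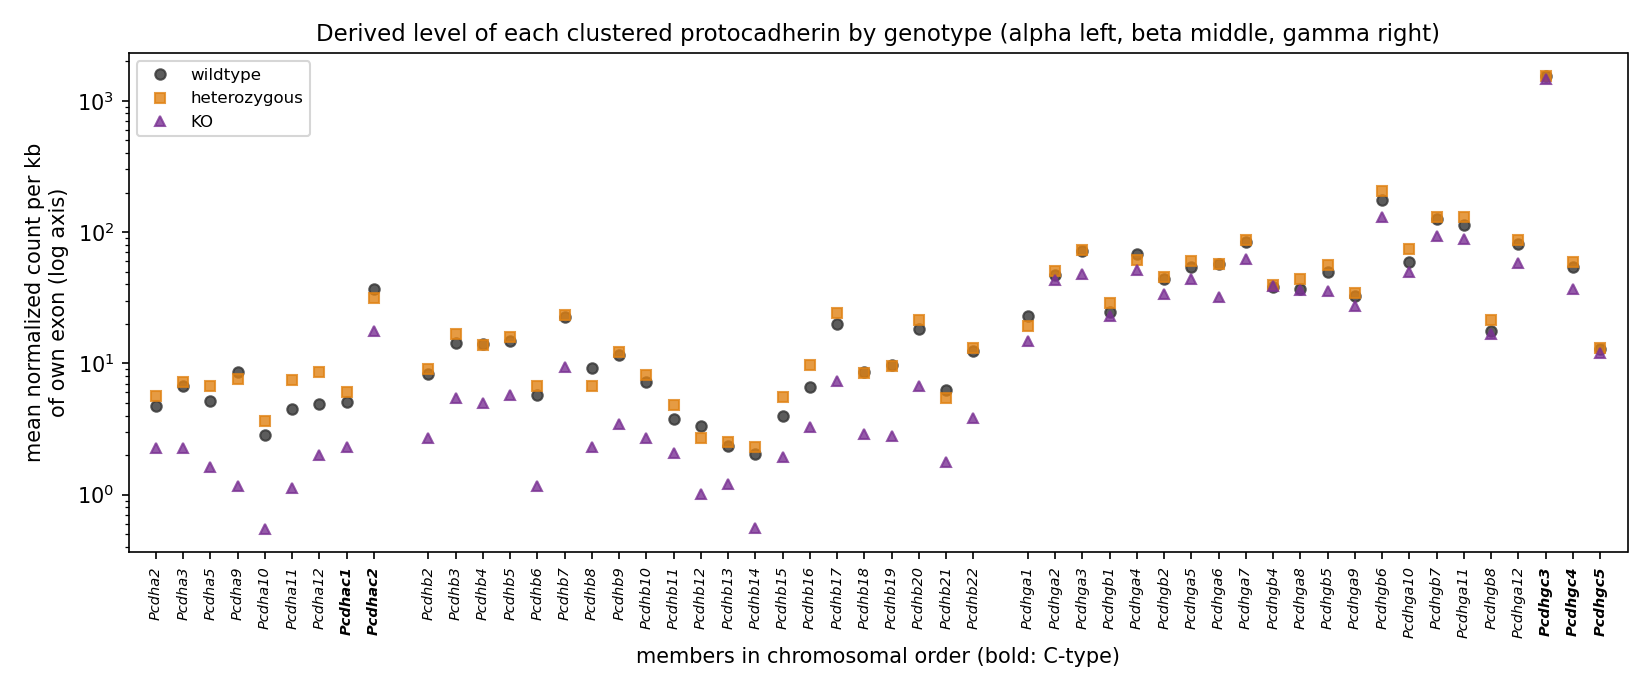
Derived mean normalized count per kilobase of own exon (log axis) of the 52 members with an adjusted p, in chromosomal order, with a point for wildtype, heterozygous and KO embryos. Purple KO triangles lie below both other genotypes for every alpha and beta gene shown, while those of the gamma cluster lie close to them, and *Pcdhgc3* stands above all others at 1552 in wildtype and 1476 in KO embryos.

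In KO embryos the genes of the alpha and beta clusters were mostly far below their wildtype level, and gamma genes lay closer to it. Summed over its 13 members, the alpha cluster had 221 normalized counts in wildtype, 231 in heterozygous embryos and 87.8 in the KO, so that the KO sum was 39.7% of the wildtype sum. The beta cluster had 843, 915 and 298 counts, a KO sum of 35.4% of wildtype. The gamma cluster had 7325, 7577 and 6348 counts, a KO sum of 86.7%. Without *Pcdhgc3* and the other C-type genes, the gamma sum was 3148 in wildtype and 2420 in KO embryos, or 76.9%. Since per-embryo sums were not used here, these sums carry no error and differences between clusters were not tested.

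At an adjusted p under 0.05, 15 of the 52 members with an adjusted p were lower in KO embryos than in wildtype ones and 0 were higher. The background over all genes was 10.2% called lower and 15.6% called higher, of 17477 genes. Calls fell on 4 of 9 alpha, 7 of 21 beta and 4 of 22 gamma genes. At an unadjusted p under 0.05, 26 of the 52 members were lower and 0 higher, beside 3107 lower and 3969 higher of the 17477 genes. The median log2 fold change was -1.27 over the 13 alpha, -1.48 over the 22 beta and -0.38 over the 22 gamma genes, beside a median of 0.05 over all 20653 genes tested. Estimates were negative for 55 of the 57 members. The exceptions were *Pcdhgb4* at 0.03 and the barely detected *Pcdhb1* at 0.97 (SE 3.82), and scaling to the sum of counts turns *Pcdhgb4* to the negative side.

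The calls depend on the reference distribution, the scaling and the threshold. With a log2 fold change beyond 1 required as well, 11 members were called lower, 4 alpha, 7 beta and 0 gamma genes. The share of all genes that pass both thresholds was not computed, and the background above does not apply to this count. With a t distribution in place of the normal one (7 degrees of freedom), no member and no gene of 20653 was called. Since it called nothing at all, this alternative does not tell the members apart from other genes. The sum of derived counts was higher in KO than in wildtype embryos by 0.25 on the log2 scale, and scaling to it lowers every fold change by that amount, calls 33 members lower and 0 higher, and gives a background of 25.2% lower and 6.49% higher.

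**Figure D2:**
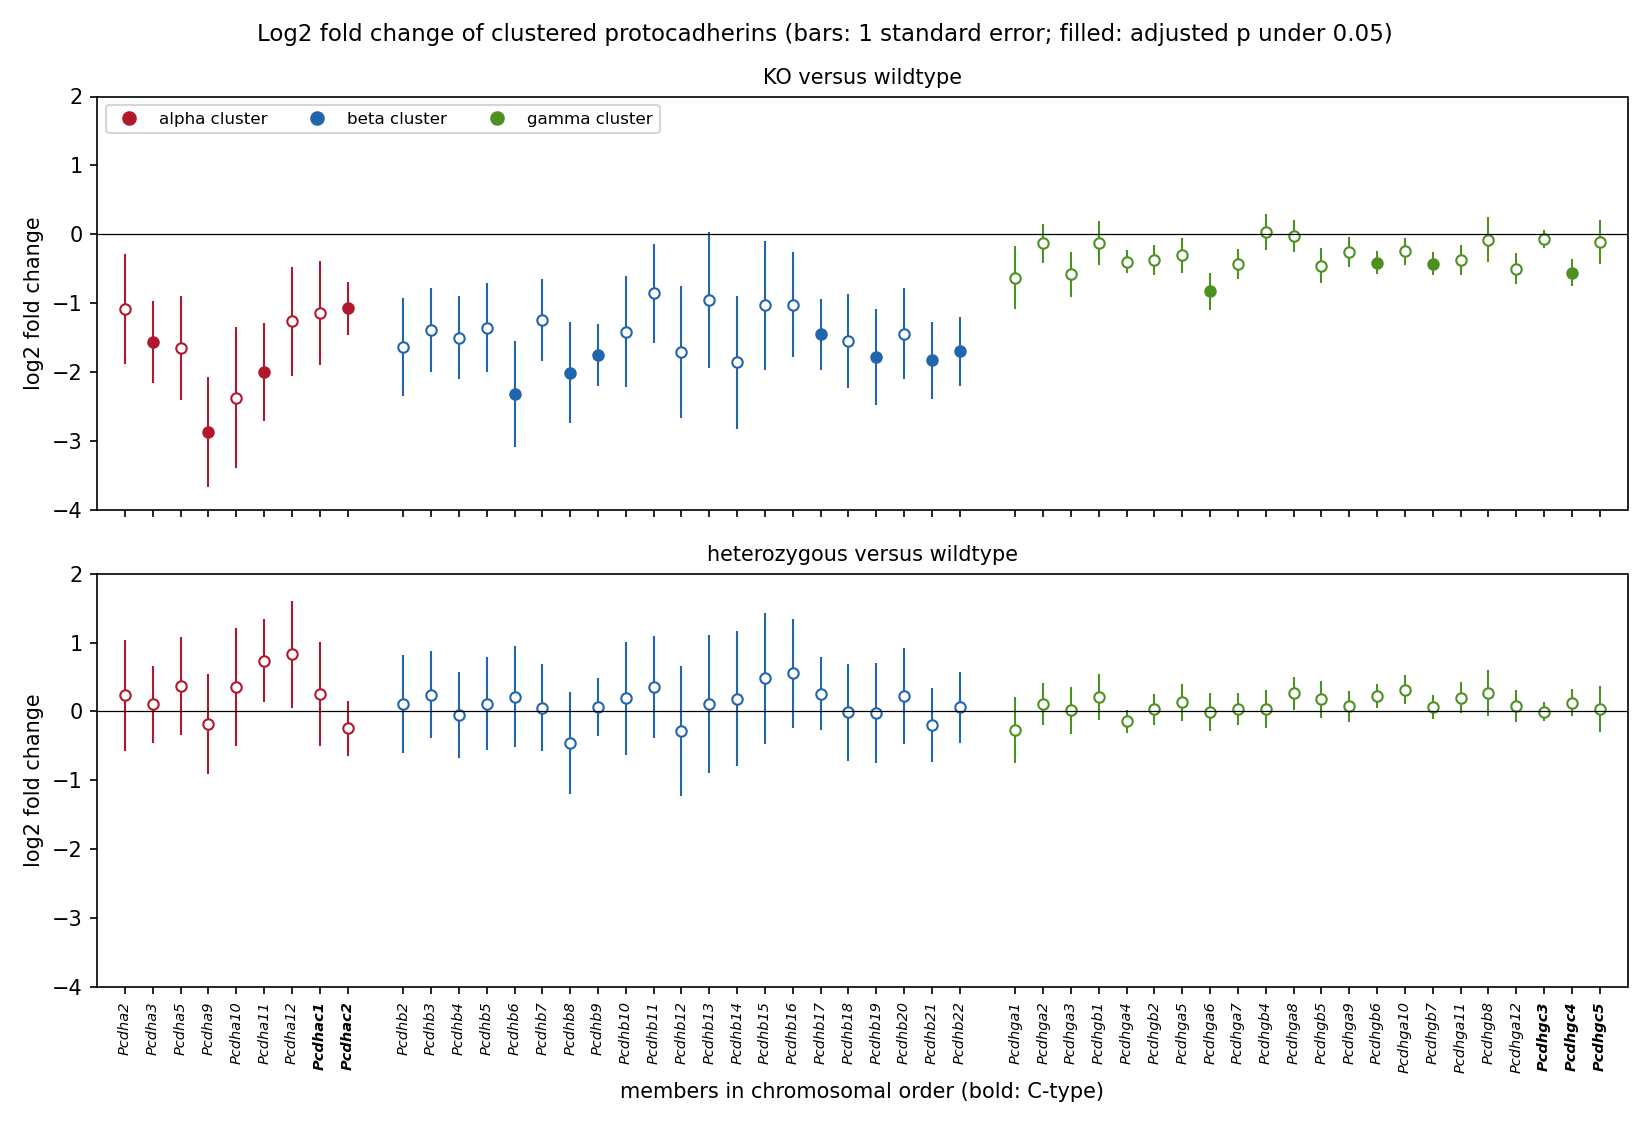
Log2 fold change of the 52 members in KO versus wildtype (above) and heterozygous versus wildtype embryos (below), in chromosomal order, with bars of 1 SE and filled points at an adjusted p under 0.05. In KO embryos the alpha and beta points lie between -2.88 and -0.86 with wide bars and the gamma points between -0.83 and 0.03 with narrow ones, and in heterozygous embryos all points scatter around 0. Scaling to the sum of counts lowers each KO point by 0.25 and turns *Pcdhgb4* negative.

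Among the alternate alpha isoforms with an adjusted p, *Pcdha9* had the lowest estimate. Its derived mean was 21.3 in wildtype, 18.7 in heterozygous embryos and 2.90 in the KO, and its log2 fold change in KO versus wildtype embryos was -2.88 (SE 0.80, adjusted p = 0.00502). *Pcdha11* had means of 11.3, 18.8 and 2.82 and a log2 fold change of -2.00 (SE 0.71, adjusted p = 0.0272). *Pcdha3* went from 16.5 in wildtype and 17.7 in heterozygous to 5.56 in KO embryos, a log2 fold change of -1.57 (SE 0.60, adjusted p = 0.0377). For each of these 3 genes the KO mean was at most 33.7% of the wildtype mean and the heterozygous mean was near or above the wildtype mean. The other 4 alternate isoforms with an adjusted p were not called: *Pcdha10* had an estimate of -2.37 (SE 1.02), *Pcdha5* of -1.65 (SE 0.75), *Pcdha12* of -1.27 (SE 0.79) and *Pcdha2* of -1.08 (SE 0.80). Their means of 7.08 to 12.1 in wildtype and 1.37 to 5.63 in KO embryos are small counts, and their intervals are wide, from -2.65 to 0.48 for *Pcdha2*.

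Beta genes are not spliced to a constant exon, although most have short stretches that occur in another member. The beta gene with the smallest adjusted p was *Pcdhb9*, whose mean was 35.4 in wildtype, 37.0 in heterozygous embryos and 10.5 in the KO (log2 fold change in KO versus wildtype embryos -1.75, SE 0.45, adjusted p = 0.00202). *Pcdhb22* had means of 77.0, 80.3 and 23.7 and a fold change of -1.70 on the log2 scale (SE 0.50, adjusted p = 0.00811). *Pcdhb21*, which overlaps it, had means of 26.6, 23.2 and 7.49 and a log2 fold change of -1.83 (SE 0.56, adjusted p = 0.0106). *Pcdhb6* had the lowest estimate of the cluster. It went from 21.6 in wildtype and 25.1 in heterozygous to 4.31 in KO embryos, or -2.32 on the log2 scale (SE 0.77, adjusted p = 0.0175). The other called beta genes were *Pcdhb17* at -1.45 (adjusted p = 0.0259), *Pcdhb8* at -2.01 (0.0303) and *Pcdhb19* at -1.79 (0.0440). *Pcdhb17* was the most abundant of them, with 93.6 counts in wildtype, 112 in heterozygous embryos and 34.2 in the KO.

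The 14 beta genes that had an adjusted p and were not called lay in the same direction. *Pcdhb7*, among the most abundant genes of the cluster, had 78.5 counts in wildtype and 33.0 in KO embryos (log2 fold change -1.25, SE 0.60, adjusted p = 0.0992). The estimate nearest to 0 was that of *Pcdhb11*, at -0.86 (SE 0.72), followed by *Pcdhb13* at -0.96 (SE 0.99) and *Pcdhb16* at -1.03 (SE 0.76). *Pcdhb14* had an estimate of -1.86 (SE 0.97, adjusted p = 0.132) with 17.7 counts in wildtype and 4.86 in KO embryos. Of the 21 beta genes, 19 had an estimate below -1, 7 had an adjusted p between 0.05 and 0.1, and the 95% interval of all 21 held -1. KO means ran from 20.0% to 55.2% of the wildtype means across these genes. The estimates of called and uncalled beta genes overlapped, as did their SEs, which ran from 0.45 to 0.99 over all 21.

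In the gamma cluster the A and B isoforms are interleaved along the chromosome. *Pcdhga6* had the lowest estimate, with means of 149 in wildtype, 148 in heterozygous embryos and 83.8 in the KO and a log2 fold change of -0.83 (SE 0.26, adjusted p = 0.0137). The abundant B isoforms *Pcdhgb6* and *Pcdhgb7* were also called. *Pcdhgb6* had 449, 523 and 337 counts (log2 fold change in KO versus wildtype embryos -0.42, SE 0.17, adjusted p = 0.0496), and *Pcdhgb7* 323, 337 and 240 counts (-0.43, SE 0.17, adjusted p = 0.0414). At the other end, *Pcdhgb4* had 97.6 counts in wildtype, 99.9 in heterozygous embryos and 99.8 in the KO, with an interval of its log2 fold change from -0.47 to 0.54. *Pcdhga8* had 95.7, 115 and 94.2 counts, with an interval from -0.48 to 0.43. *Pcdhga1* and *Pcdhga3* had estimates of -0.63 (SE 0.46) and -0.58 (SE 0.32) and were not called, although both lay further from 0 than the called B isoforms. The median was -0.39 over the 12 A isoforms and -0.38 over the 7 B isoforms. In 19 of the 22 gamma genes the whole 95% interval lay above -1, which was so for 0 of 9 alpha and 0 of 21 beta genes. SEs ran from 0.13 to 0.46 in the gamma, 0.38 to 1.02 in the alpha and 0.45 to 0.99 in the beta cluster. This contrast therefore depends on precision as well as on the estimates.

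The C-type isoforms gave estimates within the range of their own cluster or at its weaker end, and differences between genes were not tested. *Pcdhac2*, the most abundant alpha gene, had 112 counts in wildtype, 94.8 in heterozygous embryos and 53.3 in the KO and a log2 fold change of -1.08 (SE 0.38, adjusted p = 0.0259). *Pcdhac1* had 13.1, 15.6 and 5.92 counts and an estimate of -1.15 (SE 0.75, adjusted p = 0.237). Both estimates lay towards the weaker end of the alpha genes, beside a median of -1.65 over the 7 alternate isoforms with an adjusted p. *Pcdhgc4*, an isoform that needs a partner isoform to reach the cell surface, had 158, 172 and 107 counts and a log2 fold change of -0.56 (SE 0.19, adjusted p = 0.0224). *Pcdhgc5* had 33.7, 34.5 and 31.2 counts and an estimate of -0.11 (SE 0.32), with an interval from -0.74 to 0.52. *Pcdhgc3* had 3986, 3972 and 3790 counts and an estimate of -0.07 (SE 0.13, adjusted p = 0.693), with an interval from -0.32 to 0.18, beside an interval from -1.82 to -0.33 for *Pcdhac2*. Scaled to the sum of counts, the estimate of *Pcdhgc3* was -0.32 and had an adjusted p of 0.0428. The median over the 5 C-type isoforms was -0.56, beside -1.03 over the 52 other members, but these 52 are mostly alpha and beta genes whereas 3 of the 5 C-type isoforms are gamma genes.

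The makeup of the protocadherin RNA differed with the clusters. *Pcdhgc3* alone held 47.5% of all clustered protocadherin counts in wildtype, 45.5% in heterozygous embryos and 56.3% in the KO. The beta genes held 10.05%, 10.49% and 4.43%, and the alpha genes 2.63%, 2.65% and 1.30%. All members together made up 0.0352% of the normalized counts in wildtype, 0.0368% in heterozygous embryos and 0.0238% in the KO. These shares are of counts, not per length, and have no error because they come from group means.

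In heterozygous embryos the clusters stayed near their wildtype levels. No member was called in heterozygous versus wildtype embryos by DESeq2, lower or higher, and 0 had an unadjusted p under 0.05. The background was 0.00484% called lower and 0.00484% called higher, 1 gene each of 20653. At an unadjusted p under 0.05, 53 of all genes were lower and 22 higher. Median log2 fold changes were 0.25 over the alpha, 0.11 over the beta and 0.08 over the gamma genes, beside -0.01 over all genes. The estimate was above 0 for 44 of the 57 members, but all members come from the same 6 embryos and are not independent. *Pcdha12* had the highest estimate of the members with an adjusted p in the KO comparison, 0.83 (SE 0.77), and *Pcdhb8* the lowest, -0.46 (SE 0.74). SEs of this size leave room for changes of more than 1 log2 unit in single alpha and beta genes, whereas for *Pcdhgc3* the estimate was -0.00 with an SE of 0.14.

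Against heterozygous embryos, the KO embryos gave a similar list, from a Wald test derived from both deposited comparisons. It used the same 4 KO embryos and is not a second sample of them. Of the 57 members, 19 were called lower and 0 higher, and 33 had an unadjusted p under 0.05, all of them lower. The background was 8.22% called lower and 13.2% called higher. At an unadjusted p under 0.05, 3117 of 20653 genes were lower and 4175 higher. Calls fell on 6 alpha, 6 beta and 7 gamma genes. *Pcdhb9* had a log2 fold change of -1.82 (SE 0.44, adjusted p = 0.00132), *Pcdha11* of -2.73 (SE 0.68, adjusted p = 0.00191) and *Pcdhgb6* of -0.64 (SE 0.17, adjusted p = 0.00289). *Pcdhgc4* was the C-type isoform called, at -0.68 (SE 0.19, adjusted p = 0.00529), and *Pcdhac2* was not, at -0.83 (SE 0.38, adjusted p = 0.0970).

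Several members were called in only 1 of these comparisons. The estimates differ by that of heterozygous versus wildtype embryos, which was not called for any of them. The adjustment differs too, over 17477 genes against wildtype and over 20653 genes against heterozygous embryos. *Pcdha5*, *Pcdha10*, *Pcdha12*, *Pcdhb3*, *Pcdhga10*, *Pcdhga11* and *Pcdhga12* were called against heterozygous embryos alone, with estimates from -0.57 for *Pcdhga10* to -2.73 for *Pcdha10*. The estimates of these 2 genes against wildtype embryos were -0.25 and -2.37. *Pcdhac2*, *Pcdhb8* and *Pcdhb19* were called against wildtype embryos alone. Of these, *Pcdhb19* had close estimates of -1.79 against wildtype and -1.76 against heterozygous embryos. With its Wald p-values adjusted over 20653 genes in both comparisons, it was called in neither (adjusted p = 0.0519 and 0.0525). With the squares of both SEs added, an upper bound of the error, 0 members were called lower in KO versus heterozygous embryos. A t distribution called no member and no gene at all in that comparison.

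The implied spread between embryos was wider for alpha and beta genes than for gamma genes. The dispersion of a gene, the squared coefficient of variation between embryos beyond counting error, was solved from the deposited SEs. Over members with a mean of at least 5, its median was 0.343 in the alpha (9 genes), 0.338 in the beta (21 genes) and 0.0352 in the gamma cluster (22 genes). These correspond to coefficients of variation of 58.6%, 58.1% and 18.8%. Over all genes the dispersion was lower at higher means. Within means of 10 to 100, the median was 0.334 for 19 beta genes, 0.343 for 7 alpha genes and 0.0581 for 6 gamma genes, beside 0.155 for all 3289 genes of that range. Levels were not matched within this range, since most of its alpha genes had means near 10 and all its genes a median mean of 32.8. Within means of 100 to 1000 the median dispersion was 0.0337 for 15 gamma genes, beside 0.0425 for all 6394 genes. *Pcdhb19*, with a mean of 49.0, had a dispersion of 0.371, and *Pcdhga1*, with a mean of 47.9, one of 0.149. The values are estimates that the authors' software draws towards a trend over all genes, and they hold the spread of all 3 genotypes in 1 number per gene.

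**Figure D3:**
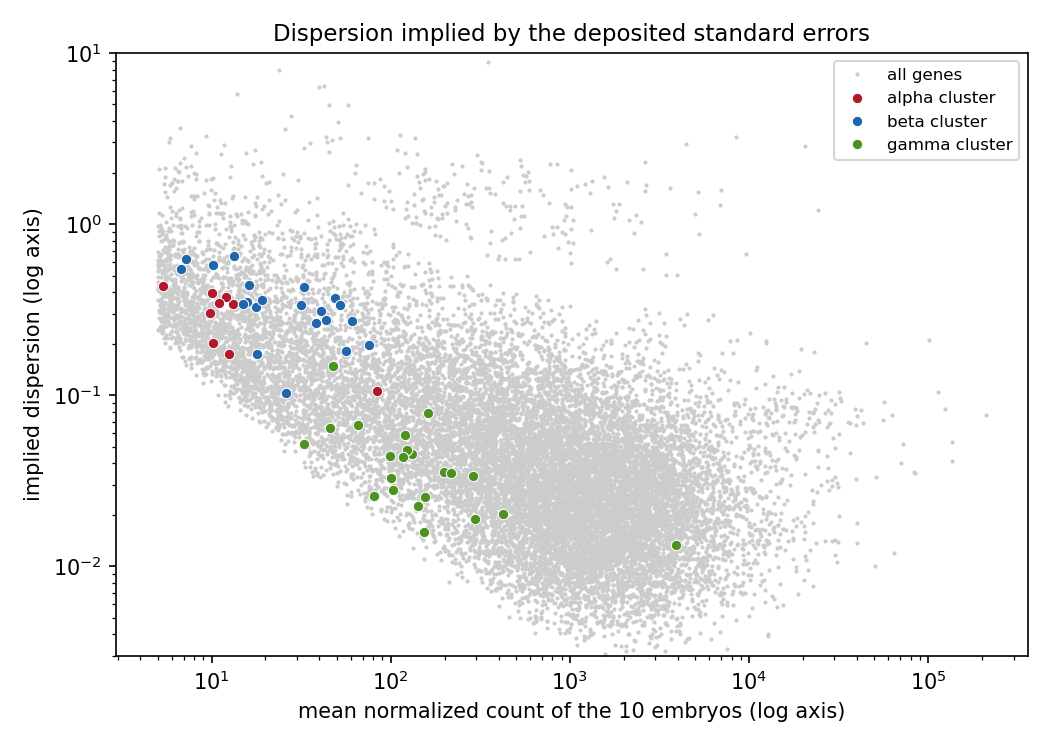
Dispersion implied by the deposited SEs against the mean normalized count of the 10 embryos, both on log axes, with a grey point for each gene with a mean of at least 5 and coloured points for the members. Most beta and most alpha points lie in the upper part of the grey cloud at their level, with *Pcdhb9* (0.103) an exception. Gamma points lie in its middle or lower part.

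Position and level gave little order within a cluster. Spearman's rho between the position along the cluster and the log2 fold change in KO versus wildtype embryos was 0.27 over 9 alpha, -0.08 over 21 beta and 0.21 over 22 gamma genes. Between the level per kilobase and the log2 fold change it was 0.22, 0.13 and -0.29. Over all 52 members it was 0.72, with the gamma genes both higher in level and closer to 0 in fold change. Genes of a cluster share libraries and neighbours, and these values are descriptions.

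Other gene lists show what moved alongside the clusters. The background for calls in these lists is that over all genes, 10.2% lower and 15.6% higher. Of 18 markers of postmitotic neurons, 17 were lower in KO embryos and 0 higher, with a median log2 fold change of -1.03. Among these were *Rbfox3*, a splicing factor of neurons (-0.85, adjusted p = 5.40e-05), *Mapt*, which encodes tau (-1.31, 0.00105), and *Syt1*, a calcium sensor of synaptic vesicles (-1.25, 0.00152). The summed level of the 18 markers was 64934 in wildtype, 71438 in heterozygous embryos and 32876 in the KO, or 50.6% of wildtype in the KO. The part of this in the lower protocadherin counts was not tested. Per 1000 neuron marker counts, the alpha cluster had 3.40 counts in wildtype, 3.23 in heterozygous embryos and 2.67 in the KO and the beta cluster 13.0, 12.8 and 9.08, while the gamma cluster had 113, 106 and 193. Per 1000 neural progenitor marker counts, the alpha cluster had 7.65 counts in wildtype embryos, 6.93 in heterozygous ones and 4.45 in the KO, the beta cluster 29.2, 27.4 and 15.1, and the gamma cluster 254, 227 and 322.

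Neural progenitor markers moved less. Of 14, 0 were called lower and 0 higher, with a median of -0.40, and their sum in KO embryos was 68.3% of wildtype. Of the 10 markers of neural crest and peripheral nervous system, 4 were lower and 0 higher (median -0.80). Among them were *Prph*, an intermediate filament of peripheral neurons, at -1.44, *Isl1*, a factor of sensory and motor neurons, at -0.74, and *Sox10*, a factor of glia and neural crest, at -1.05. Mesenchyme markers had 3 of 10 lower and 0 higher, with a median of -0.20. Those called were *Prrx1* (-0.83), *Pdgfra* (-0.60) and *Twist2* (-0.63). The estimates of 4 others lay above 0, the highest being *Col1a1* at 0.69 (SE 0.30, adjusted p = 0.0692), and the KO sum of the list was 106% of wildtype.

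Trophoblast and endothelial markers were mostly higher in KO embryos. Of 9 trophoblast markers above 0, 8 were higher, with a median log2 fold change of 4.82, and their summed level was 980 in wildtype, 2322 in heterozygous embryos and 38172 in the KO, with *Synb* listed at 0. *Ascl2*, a trophoblast transcription factor, had a log2 fold change of 4.82, *Hand1* one of 2.99, *Psg21* one of 7.36 and *Tpbpa*, a spongiotrophoblast marker, one of 6.33. Endothelial markers had 6 of 8 higher and 0 lower (median 1.21), with *Pecam1* at 1.62, *Kdr* at 1.23, *Esam* at 1.45 and *Cdh5* at 1.49. Erythroid markers had 1 lower, *Klf1* at -1.05, and 1 higher, *Hbb-bh1* at 1.08, of 9 above 0, with *Hba-a1* listed at 0, a median of -0.41 and a KO sum of 95.8% of wildtype. The part of placental and endothelial RNA in the lower share of protocadherin counts was not tested.

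**Figure D4:**
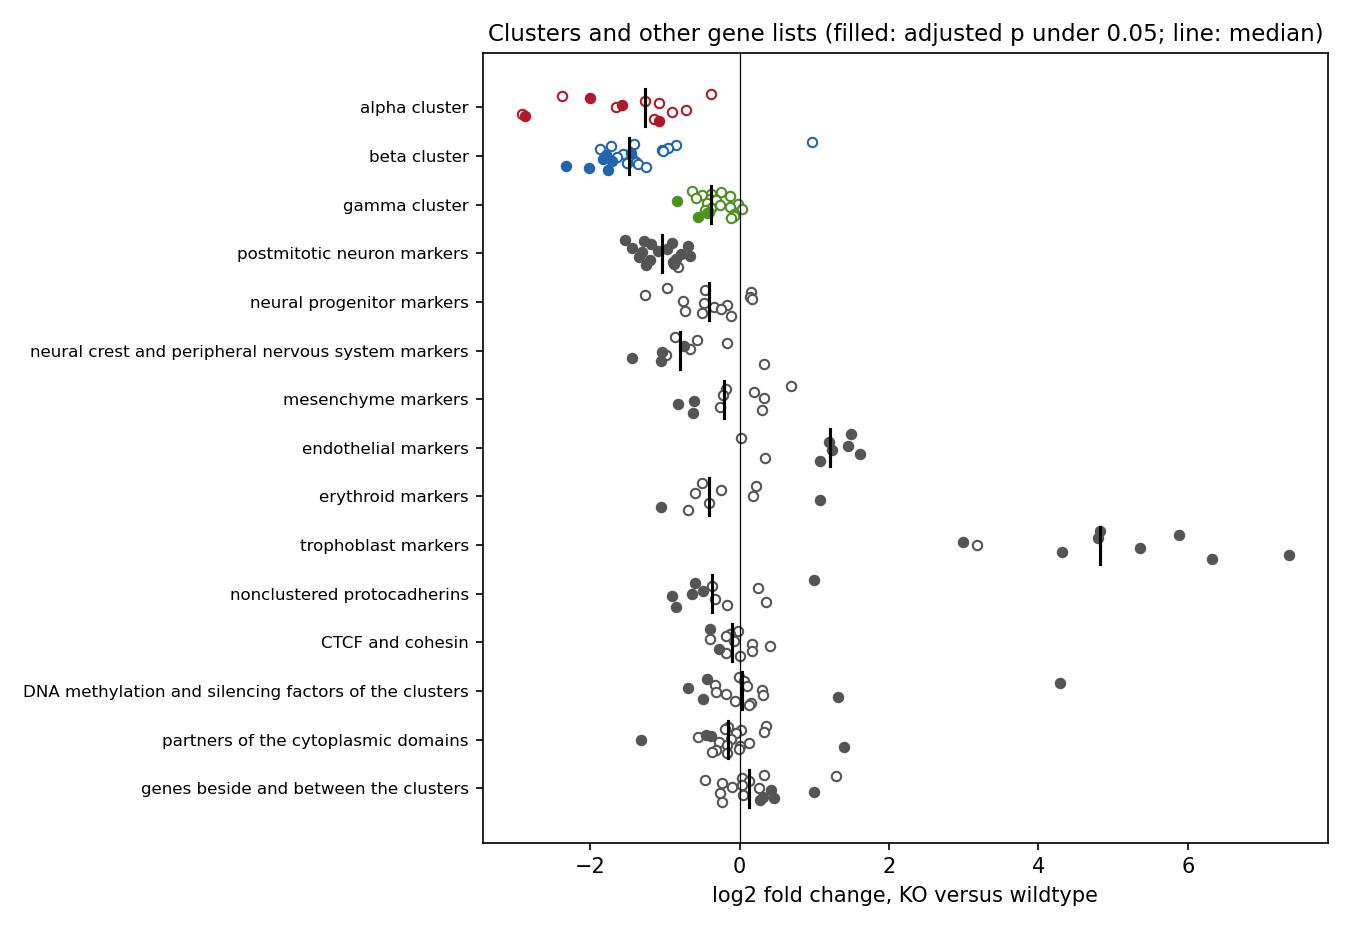
Log2 fold change in KO versus wildtype embryos of the 57 members by cluster and of the genes of 12 other lists, with filled points at an adjusted p under 0.05 and a line at the median. The alpha and beta medians (-1.27 and -1.48) lie below that of the neuron markers (-1.03), and differences between lists were not tested. The gamma median (-0.38) lies near those of the neural progenitor markers (-0.40), erythroid markers (-0.41) and nonclustered protocadherins (-0.37). Trophoblast markers lie far to the right (4.82). Scaling to the sum of counts moves all points 0.25 to the left.

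Nonclustered protocadherins, which are single genes outside the clusters and guide cell sorting and axon growth, were lower for 5 of 11 genes and higher for 1, with a median of -0.37. *Pcdh9* (-0.85, adjusted p = 3.80e-04), *Pcdh19* (-0.90, 8.20e-04), *Pcdh17* (-0.49, 0.0121) and *Pcdh18* (-0.63, 0.0285) were lower. *Pcdh1* was higher, with 578 counts in wildtype, 668 in heterozygous embryos and 1151 in the KO (0.99, adjusted p = 9.87e-04). It lies near the gamma cluster on chromosome 18. Over all genes 15.6% were called higher and 10.2% lower. Of the 17 genes beside and between the clusters, 5 were higher and 0 lower, with a median of 0.12. Besides *Pcdh1* these included *Taf7*, a subunit of the transcription factor TFIID encoded between the beta and gamma clusters (0.31, adjusted p = 0.00424), *Tmco6* (0.47, 0.0111) and *Ndufa2*, a subunit of respiratory complex I (0.42, 0.0326). None of the neighbours was called lower, and scaling to the sum of counts lowers their median to the negative side.

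The factors that choose and silence the promoters had medians near 0. Their shares of calls stand beside 10.2% lower and 15.6% higher over all genes. Of 12 genes of CTCF, cohesin and their loaders, 2 were lower (16.7%) and 0 higher, with a median of -0.10. *Ctcf* went from 4937 counts in wildtype to 3765 in KO embryos (-0.39, SE 0.14, adjusted p = 0.0328), and *Stag1*, a cohesin subunit, had -0.28 (adjusted p = 0.0361). Of 16 factors of DNA methylation and silencing, 3 were lower (18.8%) and 2 higher, with a median of 0.03. Among the lower ones, *Tet3*, which oxidises methylated cytosine, had -0.49 (adjusted p = 0.0212) and *Dnmt3a*, a de novo methyltransferase, -0.44 (0.0369). *Tet2* was higher at 1.32 (0.0231), and *Dnmt3l*, a cofactor of the de novo enzymes, was higher at 4.29 (0.0183) from 0.649 counts in wildtype to 12.7 in KO embryos. *Dnmt3b*, which methylates the promoters of the clusters, had 0.06 (SE 0.16) and *Smchd1*, a silencer of the clusters, -0.18 (SE 0.10), and neither was called.

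Partners of the cytoplasmic domains had 3 of 20 lower (15%), 1 higher and a median of -0.16. The shares over all genes were 10.2% lower and 15.6% higher. *Cyfip2*, of the WAVE complex that drives actin assembly, had a log2 fold change of -0.45 (adjusted p = 5.66e-04), *Nlgn1*, a postsynaptic adhesion protein, one of -1.32 (9.00e-04) and *Fyn*, a kinase of the Src family, one of -0.38 (0.0347). *Ptk2b*, a focal adhesion kinase that the protocadherins hold back, was higher at 1.39 (0.00911). Its paralog *Ptk2* had 0.01 (SE 0.10) and was not called.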

How the data were processed

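RNA of 10 whole embryos was sequenced by the authors from poly(A)-selected directional libraries. Per the submitters' notes, reads were trimmed with Trimmomatic 0.33, aligned to mm10 with HISAT2, counted with HTSeq and tested with DESeq2, all by the authors. The deposited tables hold the authors' own comparisons and no counts per embryo. The deposited signal is the mean normalized count per gene over all embryos, and the deposited log2 fold changes with their standard errors, the Wald statistic (a score) and the p-values with their Benjamini-Hochberg adjusted values were made from the counts by the authors with DESeq2. Because both tables have the same means, they come from 1 fit, and these deposited columns are used here as the measurement. The test is therefore the authors' DESeq2 Wald test. The deposited adjusted p covers 17477 genes in KO versus wildtype and 20653 genes in heterozygous versus wildtype embryos.

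From the deposited values, the mean of each genotype, the dispersion and the KO versus heterozygous comparison were computed with NumPy 2.4.6 and SciPy 1.17.1. The p-values of that comparison came from the normal distribution and were adjusted over 20653 genes. The steps were run on simulated counts whose SEs came from the same formulas, which checks the computation but not the authors' fit. Intervals are 95% intervals from the SE. Exon lengths came from GENCODE M21, in which 55 of the 57 members were found by identifier. The labels do not say whether embryos shared a litter, and p-values measure the spread between these embryos. Members and gene lists were chosen with earlier results of these data known. Named members were the C-type isoforms, every member called in any comparison, the 3 highest and 3 lowest estimates and the 3 highest means of each cluster. Of other lists, up to 4 called genes in each direction were named, by p. Some genes that this rule would name are not reported here. *Pcdhb20*, *Dnmt3b*, *Smchd1* and *Ptk2* fall outside this rule and were named after their values were seen, as were members listed for their low counts or shared sequence. No sequences are printed. Alternatives were another scaling, a t distribution, adjustment without a filter, a minimum mean of 10 and a fold change threshold.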

Additional observations from a re-analysis of the deposited data

How the results depend on the processing

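No paired analysis was possible because the deposited tables carry no values per embryo, and leaving out single embryos, other count tests and other count filters were not run for the same reason. Of the counts of called members, those of KO versus wildtype embryos moved from 15 to 33 with scaling to the sum of counts, to 11 with a log2 fold change beyond 1 as well, which removed all 4 gamma calls, and to 0 with a t distribution in place of the normal one, under which no gene at all was called. Those of KO versus heterozygous embryos moved from 19 to 37 with the scaling and to 0 with a t distribution, which again called no gene at all. They moved to 12 with a log2 fold change beyond 1 as well, and to 0 with squared SEs added. In that comparison the scaling gave a background of 25.9% lower and 6.91% higher. No background was computed for the fold change threshold. Scaling moved the gamma median from -0.38 to -0.63 in KO versus wildtype and from -0.43 to -0.68 in KO versus heterozygous embryos. As a log2 ratio of summed means in place of a median, C-type isoforms had -0.11 in both comparisons, and all members -0.32 and -0.37, values in which the abundant *Pcdhgc3* weighs most. Without *Pcdhgc3*, an alternative chosen after seeing the data, the ratio for all members was -0.69 in KO versus heterozygous embryos. Weighted by the inverse squared SE, the mean was -0.31 for C-type isoforms and -0.57 for all members in that comparison, and -0.28 and -0.48 in KO versus wildtype embryos, where the ratio of summed means was -0.58 for all members without *Pcdhgc3* and -0.21 for the gamma cluster. *Pcdhb19* and *Pcdhgb6* were no longer called in KO versus wildtype embryos when p-values were adjusted without a filter (adjusted p = 0.0519 and 0.0585). Under the scaling, the t distribution and the adjustment without a filter, no direction turned among the members called in KO versus wildtype embryos and the C-type isoforms. Of the 19 members called in KO versus heterozygous embryos, 17 had a mean of at least 10.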
